A study of Mus musculus with 23 samples.

Results

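The proteasome is the barrel-shaped protease that degrades ubiquitin-tagged proteins. Its 20S core is a stack of alpha and beta rings with the catalytic sites on beta subunits inside, and its 19S cap holds ubiquitin receptors, a deubiquitinase and a ring of ATPases that unfolds substrates and feeds them into the core. Activators of the Psme family dock on the core in place of the cap. Differentiating muscle cells replace much of their protein content, and proteasome activity is needed for myoblasts to differentiate. Here the genes of the constitutive proteasome were followed in C2C12, an established line of mouse myoblasts that form myotubes when serum is withdrawn. They were chosen by symbol, as rows that begin with Psma to Psmg and a number, without the immunoproteasome genes Psmb8, Psmb9 and Psmb10, and with a mean of at least 1 TPM (a transcript level scaled for transcript length and library depth). Of 32793 rows, 50 matched the pattern; after removal of the 3 immunoproteasome genes and of 3 rows below 1 TPM, 44 genes remained, and all 44 were among the 14187 genes tested. The 3 rows below the limit were Psme2b at 0.437 TPM, Psmb11 at 0.0178 TPM and Psma8 at 0 TPM; the lowest above it were Psmc3ip at 9.39 TPM and Psmd9 at 15.2 TPM.

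The 44 genes comprised 14 core subunits (7 alpha and 7 beta), 20 genes of the cap, 4 activators, and 5 genes for core assembly chaperones (Psmg1 to Psmg4) and the inhibitor PI31 (Psmf1). The cap genes were 6 base ATPases, 2 base scaffolds, the ubiquitin receptor Psmd4, 8 lid subunits and 3 assembly chaperones. The remaining gene, Psmc3ip, matched by symbol only: it encodes a partner of meiotic recombinases and is no proteasome subunit.

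Poly(A) RNA had been sequenced from cells labelled WT (control) and cells labelled Runx1KO (KO below), at day 0 in growth medium (20% fetal bovine serum) and on days 1, 3 and 6 of differentiation (2% horse serum). The 8 groups had 3 libraries apiece, apart from WT day 0 with 2 analysed here, and the 23 libraries held 22197606 to 23684077 estimated counts. The labels give neither the method of the knockout nor how many clones were used, nor whether replicates were separate cultures, so p-values measure the spread between these libraries. The last time point is day 6 in the sample titles and day 5 in the series text; the titles were followed.

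Runx1, the targeted gene, had more RNA, not less, in libraries labelled KO. It stood at 84.0 and 83.9 CPM (counts scaled for library depth with TMM factors, but not for length) in the WT libraries of growth medium and at 118, 119 and 122 CPM in those labelled KO, and on day 6 at 146, 148 and 165 CPM against 297, 319.7 and 315 CPM. On days 1 and 3 its log2 fold change (KO over WT) was 0.35 and 0.54. The RNA level was thus higher in KO on every day. As the method of the knockout is not given, gene-level RNA cannot check the label, and directions below are those of the libraries labelled KO. Markers of myoblasts (Myod1, Myf5, Pax7, Des and Vim) were above 1 TPM in every group. The summed level of 7 myotube markers was 0.49 to 2.58 TPM in growth medium, and on day 6 it was 1817 to 2281 TPM in WT and 11567 to 13545 TPM in KO, so the genotypes also differed in muscle transcripts. Adipocyte and endothelial markers summed to at most 1.88 TPM, and 4 macrophage markers summed on day 6 to 5.14 to 9.14 TPM in WT and 15.5 to 17.2 TPM in KO, with 2 of the 4 at 0 in KO. Cd68 made up most of these macrophage sums (day 6 mean 5.58 TPM in WT and 16.3 TPM in KO). Csf1r went the other way (1.12 TPM in WT and 0.247 TPM in KO). Replicate 2 of the KO day 1 group stood apart from its replicates: its median absolute deviation from the group mean over all genes was 0.165 on the log2 scale, against at most 0.101 in any other library. Genotype differences on day 1 are therefore given with it and, for the main counts and the members described, without it. Day 1 calls of single genes that are not members are given with all libraries only. In bulk RNA, fewer cells of a type and less RNA per cell cannot be told apart.

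The core genes had the highest levels. In mean TPM over all libraries, the median was 198 for the core, 114 for the cap, 88.8 for the activators and 46.6 for the assembly and inhibitor genes. The highest single levels were those of the beta subunit Psmb3 (422 TPM) and the lid subunit Psmd8 (346 TPM). The beta ring stood above the alpha ring, with a median of 252 TPM against 152 TPM. By RefSeq (GRCm38.p6), Psme1 (14:55578494 to 55581527) and Psme2 (14:55587440 to 55591101) lie close together on chromosome 14. Psmc4 (7:28041702 to 28050092), Psmd8 (7:29174187 to 29180673) and Psmd13 (7:140882394 to 140898642) all lie on chromosome 7.

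Promoter sequence was examined because proteasome genes are known to be induced together by Nfe2l1 (also called Nrf1), which binds antioxidant response elements when proteasome activity is low. RefSeq promoter windows (GRCm38.p6, the 250 bases before the transcript start) were matched to 37 of the 44 genes. No window was used for Psmb1, Psmb2, Psmb7, Psmc3, Psmd3, Psmd7 and Psmg2. The core of the element, TGACNNNGC on either strand, was found in 5 of 37 genes (13.5%), against 11.5% of 27025 genes with a window of the same length. The 5 matches are shown with up to 30 bases on each side, as read 5′ to 3′ on the gene's strand, with the match in capitals. They lie at chr14:54618004-54618072 on the minus strand (Psmb5), chr11:70525327-70525356 on the plus strand (Psmb6), chr14:45329574-45329635 on the plus strand (Psmc6), chr11:107479278-107479319 on the plus strand (Psmd12) and chr5:123228129-123228189 on the plus strand (Psmd9). The Psmb6 stretch falls inside the outer bounds of the RefSeq gene record and was kept to 30 bases.
Psmb5: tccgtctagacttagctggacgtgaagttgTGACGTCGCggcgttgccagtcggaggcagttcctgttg
Psmb6: acagaggcggactaaagagagTGACGGAGC
Psmc6: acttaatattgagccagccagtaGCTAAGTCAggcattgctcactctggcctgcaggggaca
Psmd12: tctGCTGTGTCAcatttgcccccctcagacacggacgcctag
Psmd9: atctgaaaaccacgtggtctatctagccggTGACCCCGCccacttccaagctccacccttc

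The match began 47 bases before the start in Psmb5 and 9 bases before it in Psmb6, both catalytic beta subunits. It began 31 bases before the start in the cap assembly chaperone gene Psmd9, and 227 to 247 bases before it in Psmc6 and Psmd12. A second motif, CCAAT on either strand, was found in 13 of 37 genes (35.1%), against 37.5% of all genes. Among core genes it was found in 6 of 11 (54.5%), namely Psma1, Psma2, Psma3, Psma6, Psma7 and Psmb3, among cap genes in 5 of 17 (29.4%) and among activators in 1 of 4. The window of Psma1 is shown because this alpha subunit had the highest called genotype difference of the core on days 1 and 3 (values below). It lies at chr7:114276117-114276366 on the minus strand and holds 2 such matches, 1 in each orientation, given in capitals.
Psma1: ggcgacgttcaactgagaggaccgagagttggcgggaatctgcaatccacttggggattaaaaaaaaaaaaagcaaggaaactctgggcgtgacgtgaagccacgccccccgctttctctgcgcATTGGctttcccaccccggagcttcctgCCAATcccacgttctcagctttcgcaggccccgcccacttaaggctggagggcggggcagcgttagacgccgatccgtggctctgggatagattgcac

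A match in these windows is a description of letters, not evidence of binding. Nfe2l1 itself was measured and is described with the regulators.

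In growth medium, WT and KO held similar amounts of proteasome RNA, and both held less of it in differentiation medium. The 44 genes summed to 7458 and 7581 TPM in the 2 WT libraries and 7544 ± 229 (SD, n = 3) TPM in KO. In WT the sum was 5553 ± 152 (SD, n = 3) TPM on day 1, 5622 ± 152 (SD, n = 3) TPM on day 3 and 5299 ± 99.5 (SD, n = 3) TPM on day 6. In KO it was 6338 ± 475 (SD, n = 3) TPM on day 1, 6015 ± 158 (SD, n = 3) TPM on day 3 and 5572 ± 19.4 (SD, n = 3) TPM on day 6. Every differentiation library stood below every growth-medium library, and on each of the 3 differentiation days every KO library stood above every WT library. Without replicate 2, the other 2 KO libraries of day 1 summed to 6023 and 6106 TPM, still above the WT libraries of that day (5383 to 5674 TPM).

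**Figure D1:**
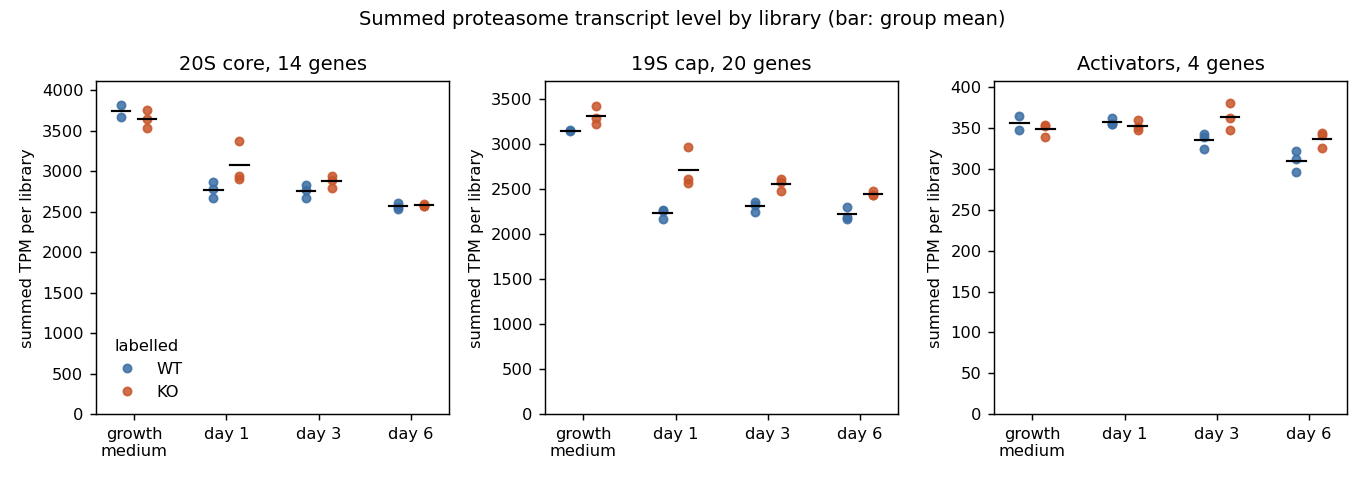
Summed TPM of the 20S core, 19S cap and activator genes in each library (points) with the group mean (bar), by time point and label. Core and cap sums fell from growth medium to day 1 in both genotypes; the cap points of KO lie above those of WT at every time point, while the core points meet by day 6 (2536 to 2614 TPM in WT and 2576 to 2597 TPM in KO).

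The balance of cap to core transcripts was higher in every KO library than in any WT library of the same time point. The summed TPM of the cap divided by that of the core was 0.840 ± 0.0248 (SD, n = 2) in WT and 0.908 ± 0.00719 (SD, n = 3) in KO in growth medium. On day 1 it was 0.804 ± 0.0156 (SD, n = 3) and 0.882 ± 0.00553 (SD, n = 3), on day 3 0.838 ± 0.00511 (SD, n = 3) and 0.888 ± 0.00216 (SD, n = 3), and on day 6 0.863 ± 0.0303 (SD, n = 3) and 0.947 ± 0.0122 (SD, n = 3). An exact two-sided permutation test of such a single value was not run, since its p cannot go below 0.2 with 2 against 3 libraries or below 0.1 with 3 against 3. The lid subunit Psmd8 alone supplied 277 and 263 TPM of the growth-medium cap sum in WT and 434, 432 and 432 TPM in KO. The whole cap sum in growth medium was 3145 ± 8.48 (SD, n = 2) TPM in WT and 3309 ± 104 (SD, n = 3) TPM in KO. The growth-medium difference of the cap sum was thus about that of Psmd8 alone, and a ratio without Psmd8 was not computed.

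Within the WT time course, 13 of 14 core genes and 18 of 20 cap genes fell by day 1 and were lower on day 3 and day 6 as well. Over the 44 genes, 38 were called lower and 2 higher on day 1 (edgeR quasi-likelihood test, Benjamini-Hochberg adjusted p under 0.05), where 27.6% of all tested genes were called lower and 27.1% higher. On day 3 the counts were 36 and 2 (29% and 29.2% of all genes) and on day 6 they were 39 and 0 (31.1% and 32.6%). The median log2 fold change of the members was -0.64, -0.63 and -0.74 on the 3 days, against 0.02, 0.02 and 0.05 over all genes tested. In KO, 36 genes were called lower and 2 higher on day 1 (25.2% and 27.2% of all genes). On day 3 the counts were 34 and 2 (27.2% and 30.4%), and on day 6 they were 37 and 2 (33.5% and 36.6%). The KO medians were -0.43, -0.44 and -0.58, against 0.04, 0.05 and 0.05 over all genes. Without replicate 2 of KO, 38 members were called on day 1 as well, 36 of them the same. The 3 comparisons of a genotype share its growth-medium libraries.

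**Figure D2:**
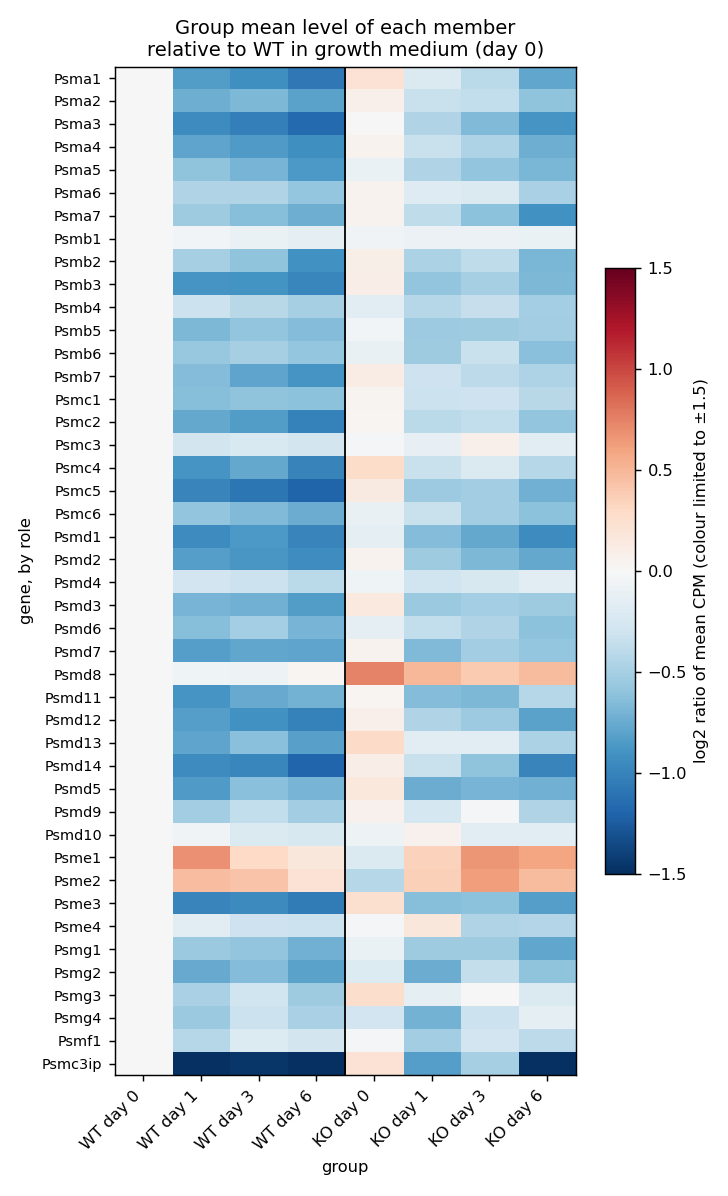
Group mean CPM of each of the 44 genes as a log2 ratio to WT in growth medium, ordered by role, with WT groups left and KO groups right (colour limited to 1.5 in either direction; Psmc3ip lies beyond it in some groups). Most rows turn blue in differentiation medium, less so in KO, while Psme1 and Psme2 turn red and Psmd8 of both genotypes stays near or above the WT growth-medium level, although in KO it fell from its own.

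The catalytic subunits of the core fell by day 6 in both genotypes. Psmb5, which carries the chymotrypsin-like site, stood at 97.7 and 102 CPM in WT growth medium and 63.4, 71.0 and 56.6 CPM on day 6, and at 91.6, 96.4 and 103 CPM and 66.9, 68.7 and 73.5 CPM in KO. Growth-medium and day 6 libraries did not overlap in either genotype, whereas WT and KO overlapped on day 6; the log2 fold change was -0.65 (SE 0.09, adjusted p = 2.16e-06) in WT and -0.48 (SE 0.08, adjusted p = 2.6e-05) in KO. Psmb6, with the caspase-like site, went from 152 and 166 CPM to 109, 121 and 88.3 CPM in WT (log2 fold change -0.58, SE 0.11, adjusted p = 7.31e-05) and from 137, 146 and 157 CPM to 100.3, 103 and 105 CPM in KO (log2 fold change -0.51, SE 0.10, adjusted p = 8.63e-05). The WT day 6 libraries of Psmb6 bracketed those of KO. Psmb7, with the trypsin-like site, went from 109 and 129 CPM to 63.9, 65.2 and 64.3 CPM in WT (log2 fold change -0.89, SE 0.12, adjusted p = 6.61e-07). In KO it went from 124, 134 and 127 CPM to 81.7, 85.7 and 91.5 CPM (log2 fold change -0.57, SE 0.11, adjusted p = 4.56e-05), and every KO library of day 6 was above every WT library.

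On day 1, Psmb5 stood at 61.9, 60.2 and 65.7 CPM in WT and 73.7, 62.0 and 70.1 CPM in KO, and on day 3 at 72.0, 64.2 and 62.7 CPM and 72.4, 65.4 and 68.4 CPM. Psmb6 stood at 107, 102 and 113 CPM and 119, 91.1 and 119 CPM on day 1, and at 118, 112 and 108 CPM and 127, 124 and 129 CPM on day 3. Most of the WT fall of both genes was present by day 1, and Psmb6 was not called in KO on day 3. Psmb7 stood at 66.4, 77.8 and 84.5 CPM and 88.2, 118 and 82.0 CPM on day 1, and at 71.7, 68.4 and 67.0 CPM and 93.8, 83.8 and 95.6 CPM on day 3, where the genotypes did not overlap. The highest Psmb7 value of the KO day 1 group came from replicate 2.

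The size of the fall varied between core genes. On day 6 in WT it was greatest for the alpha subunit Psma3, which stood at 151 and 163 CPM in growth medium and 66.6, 77.3 and 66.2 CPM on day 6 (log2 fold change -1.16, SE 0.13, adjusted p = 5.33e-08). In KO it was greatest for the alpha subunit Psma1, with 131, 126 and 137 CPM in growth medium and 63.0, 64.0 and 71.7 CPM on day 6 (log2 fold change -0.98, SE 0.09, adjusted p = 6.83e-10). The exception was the beta subunit Psmb1, which was called on no day in either genotype: its log2 fold change on day 6 was -0.15 (SE 0.08) in WT and -0.04 (SE 0.08) in KO. The median day 6 change of the alpha ring was -0.86 in WT and -0.79 in KO, and that of the beta ring was -0.65 and -0.51.

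In the cap, all 6 ATPases fell in WT on each day, and the base scaffold genes Psmd1 and Psmd2 fell in both genotypes on each day. The ATPase Psmc5 had the greatest fall of the cap in WT: 137 and 154 CPM in growth medium and 59.4, 71.2 and 58.5 CPM on day 6 (log2 fold change -1.20, SE 0.11, adjusted p = 2.77e-09). Psmd14, the lid deubiquitinase that removes ubiquitin chains from substrates, had the greatest fall in KO, from 99.8, 101 and 104 CPM to 45.8, 46.5 and 51.6 CPM (log2 fold change -1.08, SE 0.12, adjusted p = 1.8e-08), and in WT it went from 90.6 and 99.6 CPM to 39.7, 45.4 and 40.1 CPM (log2 fold change -1.19, SE 0.13, adjusted p = 2.8e-08). Psmd2, a scaffold that docks ubiquitin receptors and shuttle factors, went from 442 and 462 CPM to 233, 235 and 241 CPM in WT (log2 fold change -0.93, SE 0.08, adjusted p = 2.67e-10) and from 449, 466 and 490.2 CPM to 259, 268 and 272 CPM in KO (log2 fold change -0.81, SE 0.07, adjusted p = 3.42e-10). Growth-medium and day 6 libraries did not overlap for any of these 3 genes. Psmd4, the intrinsic ubiquitin receptor, changed less: it went from 157 and 164 CPM to 121, 129 and 114 CPM in WT (log2 fold change -0.41, SE 0.07, adjusted p = 3.12e-05). In KO it stood at 150.5, 153 and 160.0 CPM and 144, 138 and 152 CPM, where the groups overlapped and the change was not called (log2 fold change -0.09, SE 0.06, adjusted p = 0.199).

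Day 1 and day 3 values of these cap genes lay at or between the growth-medium and day 6 levels for Psmd14 and Psmd2. Psmd14 stood at 50.04, 48.7 and 49.2 CPM in WT and 66.1, 98.6 and 61.3 CPM in KO on day 1, and at 49.5, 46.8 and 48.5 CPM and 62.3, 57.6 and 67.2 CPM on day 3. Psmd2 stood at 262, 240.4 and 261 CPM and 296, 351 and 294 CPM on day 1, and at 254, 246 and 242 CPM and 284, 271 and 294 CPM on day 3. Psmd4 stood at 135, 128 and 133 CPM and 131, 128 and 135 CPM on day 1, and at 132, 126 and 128 CPM and 142, 128 and 138 CPM on day 3. KO replicate 2 of day 1 was the highest library of its group for Psmd14 and Psmd2, and WT and KO overlapped for Psmd4 on both days.

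Psmd8 and Psmd10 did not follow the fall of the cap in WT. The lid subunit Psmd8 stood at 233 and 234 CPM in growth medium, 222, 228 and 221 CPM on day 1, 227, 219 and 220.0 CPM on day 3 and 248, 259 and 211 CPM on day 6, and its day 6 change was not called (log2 fold change 0.03, SE 0.09, adjusted p = 0.757). In KO, Psmd8 stood at 384, 395 and 391 CPM in growth medium and fell from it. Its log2 fold changes were -0.25 (SE 0.08, adjusted p = 0.0162) on day 1, -0.35 (SE 0.08, adjusted p = 0.000969) on day 3 and -0.27 (SE 0.08, adjusted p = 0.00618) on day 6. The assembly chaperone Psmd10 was called on no day in either genotype, with day 6 log2 fold changes of -0.25 (SE 0.12) in WT and -0.08 (SE 0.11) in KO. In all, 41 of 44 genes in WT and 38 of 44 in KO had their highest group mean in growth medium.

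The activators did not move together. Psme1 and Psme2 encode the alpha and beta chains of PA28, the interferon-inducible ring that opens the core for peptide production, and both rose on days 1 and 3. Psme1 stood at 32.5 and 29.8 CPM in WT growth medium, 44.9, 54.4 and 51.0 CPM on day 1, 36.7, 38.7 and 39.8 CPM on day 3 and 33.3, 41.1 and 30.4 CPM on day 6. In KO it stood at 30.1, 24.5 and 25.5 CPM, 39.7, 39.0 and 39.7 CPM, 46.4, 47.0 and 54.5 CPM and 41.2, 50.8 and 48.3 CPM on the same days. WT was highest on day 1 and its day 6 libraries overlapped growth medium, whereas every KO library of days 1, 3 and 6 was above every KO growth-medium library. The day 6 log2 fold change was 0.17 (SE 0.12, adjusted p = 0.238) in WT and 0.81 (SE 0.11, adjusted p = 5.67e-07) in KO.

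Psme2 stood at 32.3 and 33.0 CPM in WT growth medium, 45.8, 44.7 and 44.5 CPM on day 1, 46.0, 44.5 and 41.5 CPM on day 3 and 34.3, 43.2 and 36.2 CPM on day 6. The KO libraries of the same days stood at 25.1, 24.9 and 23.03 CPM, 42.0, 43.9 and 39.4 CPM, 44.5, 49.4 and 56.8 CPM and 40.7, 45.5 and 49.5 CPM. KO began below WT in growth medium and on day 1 without overlap, and on day 6 its highest 2 libraries were above the WT range. The day 6 log2 fold change was 0.21 (SE 0.11, adjusted p = 0.0848) in WT and 0.89 (SE 0.10, adjusted p = 1.74e-08) in KO. In WT, Psme1 was called higher on day 6 by limma on log2(TPM + 1) (adjusted p = 0.00746), and Psme2 by that fit (adjusted p = 0.00147) and by DESeq2 (adjusted p = 0.0451). How reads were split between Psme2 and its near-identical copy Psme2b is uncertain.

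Psme3, which encodes the nuclear PA28 gamma ring, fell instead. It stood at 286 and 300.3 CPM in WT growth medium and 147, 139.7 and 157 CPM on day 1, 156, 156 and 141 CPM on day 3 and 147, 146 and 133 CPM on day 6. In KO it stood at 329, 344 and 368 CPM, 216, 151 and 196 CPM, 189, 194 and 191 CPM and 157, 172 and 166 CPM. No differentiation library of either genotype reached the growth-medium range, and the day 6 log2 fold change was -1.04 (SE 0.10, adjusted p = 5.47e-09) in WT and -1.07 (SE 0.09, adjusted p = 4.91e-10) in KO. Psme4, the gene of the single-chain activator PA200, stood at 149.6 and 140.2 CPM, 135, 129 and 124 CPM, 118, 118 and 116 CPM and 119, 98.4 and 131 CPM on the 4 days in WT, with a smaller day 6 fall (log2 fold change -0.32, SE 0.12, adjusted p = 0.0256) that was not called with library size alone (adjusted p = 0.132). In KO it stood at 148, 139 and 143 CPM, 137, 201 and 150.2 CPM, 113, 101 and 104 CPM and 115, 103 and 101 CPM, where replicate 2 of day 1 was the highest library of all (log2 fold change -0.43, SE 0.11, adjusted p = 0.00131 on day 6). The ratio of summed Psme1 and Psme2 TPM to Psme3 TPM went from 0.720 ± 0.0373 (SD, n = 2) in WT growth medium to 1.69 ± 0.176 (SD, n = 3) on day 6, and from 0.485 ± 0.0589 (SD, n = 3) to 1.82 ± 0.102 (SD, n = 3) in KO.

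**Figure D3:**
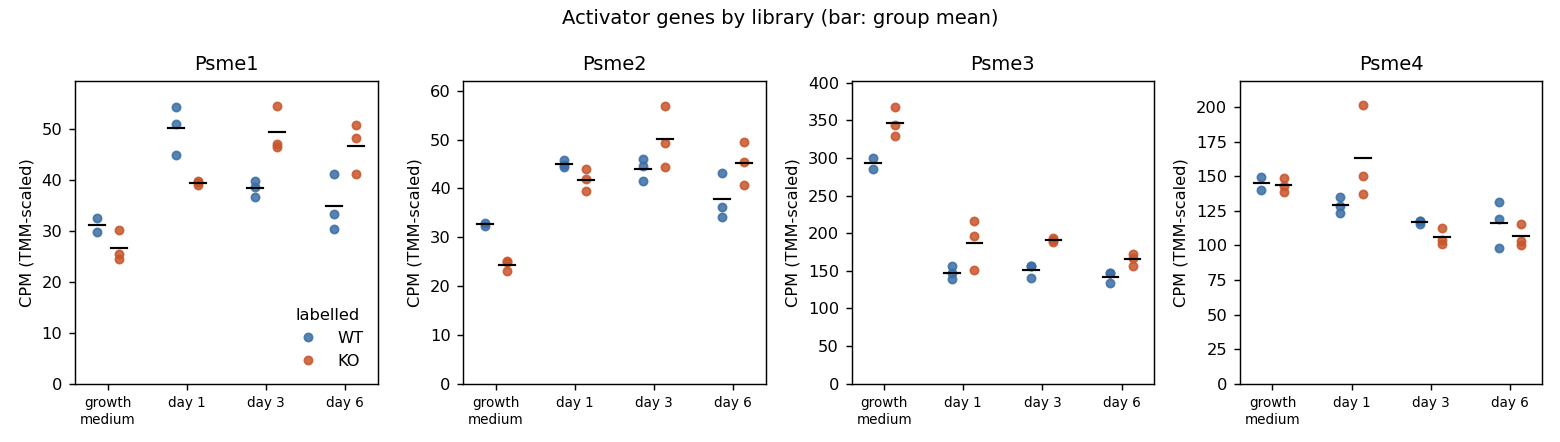
CPM of the 4 activator genes in each library (points) with the group mean (bar), by time point and label. Psme1 and Psme2 start between 23.03 and 33.0 CPM in growth medium and stand higher on days 1 and 3, Psme3 stands lower on every later day in both genotypes, and Psme4 has 1 high KO library on day 1 (201 CPM).

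Direct comparison of the genotypes showed few differences in growth medium and more during differentiation, most of them higher in KO. In growth medium 3 of 44 genes were called higher in KO and 1 lower (7.36% and 10.1% of all genes). On day 1 the counts were 23 and 1 (22.9% and 19.2%), on day 3 they were 25 and 0 (24% and 19.2%), and on day 6 they were 17 and 0 (22% and 20.8%). In this fit the share of members called higher was near the background in growth medium and above it on the later days. The median log2 fold change of the members was 0.05, 0.26, 0.25 and 0.20 on the 4 days, against 0.00, 0.03, 0.04 and 0.00 over all genes. Without replicate 2 of the KO day 1 group, 16 members were called higher and 1 lower on day 1, the median was 0.14, and 19.7% of all genes were called higher. Fitted on the WT and KO libraries of that day alone, 8 members were called higher and 1 lower on day 1, where 13% of all genes were called higher, and 5 and 2 in growth medium (14.1% higher). In growth medium the count went to 8 without that KO day 1 library, to 2 without KO replicate 3 and to 1 without either WT library. On day 3 the count fell to 14 without WT replicate 2 and to 16 without KO replicate 3, and on day 6 it fell from 17 to 11 without KO replicate 3, WT replicate 1 or WT replicate 3.

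The split of calls differed under other scaling and under limma, which uses another measure, scaling and test at once. With library size alone it was 1 higher and 2 lower in growth medium (5.36% and 12.8% of all genes) and 20 and 1 on day 1 (19.5% and 21.8%). On day 3 it was 20 and 0 (20% and 22.3%) and on day 6 it was 12 and 1 (18.1% and 25%). Limma on log2(TPM + 1) called 2 higher and 3 lower in growth medium (4.58% and 10.1% of all genes). On day 3 limma called 9 members higher and 3 lower, where 14% and 26.8% of all genes were. On day 6 it called the same numbers (15.1% and 28.1% of all genes). With log2(TPM + 0.1) the median of all genes moved from 0.04 to -0.11 on day 3 and from 0.00 to -0.12 on day 6. Relative to that median, the median of the members was 0.20 on day 3 and 0.19 on day 6, against 0.21 and 0.19 on counts. The part that the higher myotube transcripts of KO play in these differences was not tested.

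**Figure D4:**
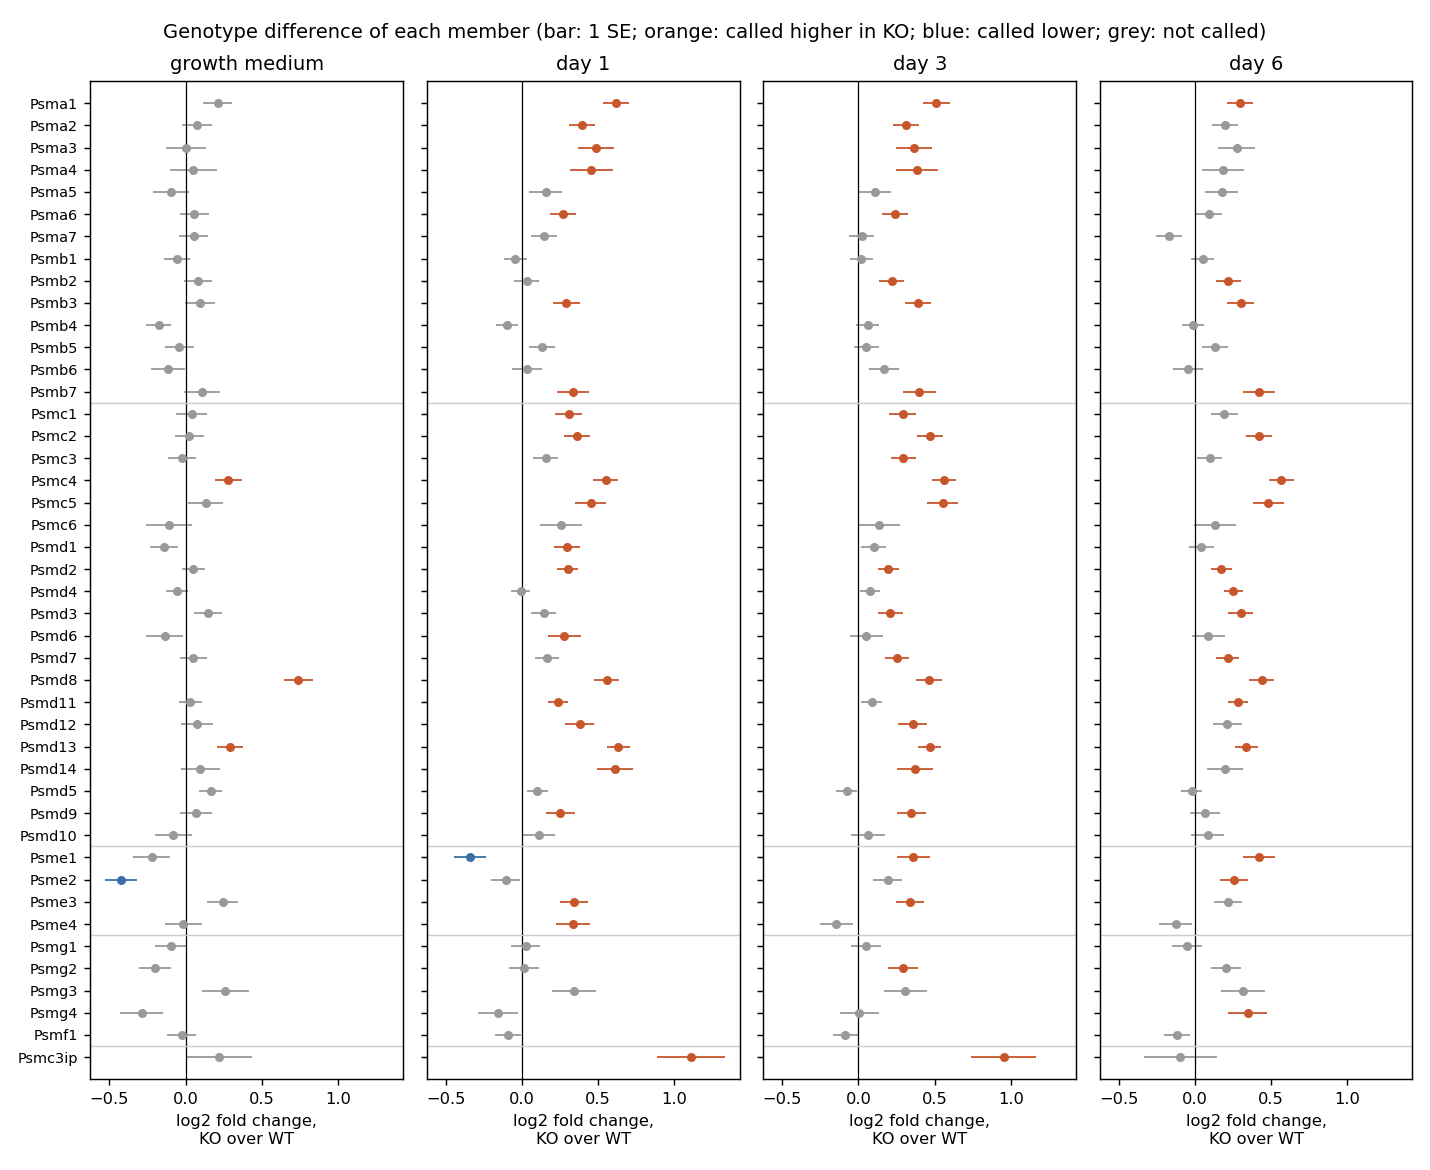
Log2 fold change (KO over WT, horizontal axis) with 1 SE for each of the 44 genes at the 4 time points, ordered by role from the alpha ring (top) to Psmc3ip (bottom). Orange points were called higher in KO and blue lower: 3 and 1 in growth medium, 23 and 1 on day 1, 25 and 0 on day 3, and 17 and 0 on day 6, and 7.36%, 22.9%, 24% and 22% of all genes were called higher.

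In the core, 0 of 14 genes were called in growth medium by edgeR with TMM over all libraries (2 at an unadjusted p under 0.05) or DESeq2, and 7, 8 and 4 were called higher in KO on days 1, 3 and 6 (22.9%, 24% and 22% of all genes), so that the day 6 share was near the background. With only the groups compared, 1 core gene was called higher in growth medium and 1 on day 1 (14.1% and 13% of all genes). With library size alone, 1 was called lower in growth medium (12.8% of all genes), and 3 higher and 1 lower on day 6 (18.1% and 25%). On day 3 the core count was 5 with RLE, library size alone or a minimum mean count of 50 (20% to 23% of all genes). Limma on log2(TPM + 1) called 1 core gene lower in growth medium, 5 higher and 1 lower on day 1, and 2 higher on days 3 and 6 with 1 and 2 lower. Of all genes, limma called 10.1% lower in growth medium. On days 1, 3 and 6 it called 15.9%, 14% and 15.1% higher and 20.8%, 26.8% and 28.1% lower. Its core counts higher on days 3 and 6 were thus near the background. The alpha ring supplied 5 of the 7 calls on day 1 and 5 of the 8 on day 3, and 1 of the 4 on day 6. Psma1 had the greatest difference of the core on day 1, with 64.1, 59.4 and 66.8 CPM in WT and 92.5, 111 and 88.2 CPM in KO (log2 fold change 0.62, SE 0.09, adjusted p = 5.89e-06, and 0.49, SE 0.08, adjusted p = 2.37e-05 without KO replicate 2), and on day 3, with 58.5, 61.1 and 60.5 CPM and 85.6, 82.9 and 88.3 CPM (log2 fold change 0.51, SE 0.09, adjusted p = 4.81e-05). The groups did not overlap on either day. On day 6 the greatest core difference was that of Psmb7 (log2 fold change 0.42, SE 0.11, adjusted p = 0.00271; values above). Psmb5 and Psmb6, the other catalytic subunits, were called on no day. Without replicate 2 of KO, 4 of the 7 day 1 core calls remained (Psma1, Psma2, Psma3 and Psmb3), and Psma4, Psma6 and Psmb7 were no longer called. The alpha ring sum in that library was 1542 TPM, against 1114 and 1102 TPM in its replicates.

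The cap had 3 of 20 genes called higher in KO in growth medium, 13 on day 1, 13 on day 3 and 10 on day 6, with none called lower by edgeR (7.36%, 22.9%, 24% and 22% of all genes were called higher). With only the groups compared, the day 1 count was 6 (13% of all genes). Limma on log2(TPM + 1) called 10, 5 and 6 higher on days 1, 3 and 6 (15.9%, 14% and 15.1% of all genes), and 1 lower on day 3 (26.8%). Without replicate 2 of KO, 10 were called on day 1, of which 9 had been called with it. Psmc4, Psmd13 and Psmd8 were called higher on all 4 days; over all genes, 469 (3.31%) were. Of their growth-medium calls, that of Psmd8 held under every alternative run. That of Psmc4 was lost without either WT library, without KO replicate 2 or 3, with the replicate block (adjusted p = 0.0577) and with library size alone (adjusted p = 0.0555). That of Psmd13 was lost without either WT library, without KO replicate 3, with library size alone (adjusted p = 0.0638) and with limma (adjusted p = 0.116 on log2(TPM + 1)). Psmc4, a base ATPase, stood at 148 and 157 CPM in WT and 174, 182 and 199 CPM in KO in growth medium (log2 fold change 0.28, SE 0.09, adjusted p = 0.0294). On day 3 it stood at 91.2, 89.4 and 86.7 CPM and 131, 124 and 139 CPM (log2 fold change 0.56, SE 0.08, adjusted p = 4.19e-06), and on day 6 at 76.7, 81.1 and 70.8 CPM and 106, 116 and 117 CPM (log2 fold change 0.57, SE 0.08, adjusted p = 3.4e-06). The lowest KO library was above the highest WT library at each of these times.

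The lid subunit Psmd8 had the greatest difference of any member in growth medium, where the 2 WT libraries stood at 233 and 234 CPM and the KO libraries at 384, 395 and 391 CPM (log2 fold change 0.74, SE 0.09, adjusted p = 3.66e-06). In KO it stood at 343, 277 and 367 CPM on day 1, 307, 295 and 316 CPM on day 3 and 312, 330.1 and 329 CPM on day 6, above every WT library of the same day (log2 fold change 0.44, SE 0.08, adjusted p = 0.000162 on day 6). Psmd13, another lid subunit, had the greatest cap difference on day 1 with all libraries, at 57.1, 51.7 and 59.4 CPM in WT and 81.8, 96.2 and 83.0 CPM in KO (log2 fold change 0.63, SE 0.08, adjusted p = 5.66e-07, and 0.53, SE 0.07, adjusted p = 1.74e-06 without KO replicate 2). Without that library the differences of Psmd8 (0.64) and Psmc4 (0.58) were greater. The WT and KO libraries of Psmd13 did not overlap. The other lid subunits called on days 1 and 3 were Psmd12 and Psmd14, and those called on days 3 and 6 were Psmd3 and Psmd7.

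The deubiquitinase Psmd14 was higher in KO on day 1 (log2 fold change 0.61, SE 0.12, adjusted p = 0.000195, and 0.35, SE 0.07, adjusted p = 0.000643 without KO replicate 2) and on day 3 (log2 fold change 0.37, SE 0.12, adjusted p = 0.0129), and it was not called on day 6 (log2 fold change 0.20, SE 0.12, adjusted p = 0.183). The day 3 call was lost without KO replicate 3 (adjusted p = 0.0641) or WT replicate 2 (0.0868) and with limma on log2(TPM + 1) (adjusted p = 0.175). The scaffold Psmd2 was higher by less: 0.30 (SE 0.07, adjusted p = 0.0012) on day 1 (0.19 without KO replicate 2, still called), 0.20 (SE 0.07, adjusted p = 0.0253) on day 3 and 0.17 (SE 0.07, adjusted p = 0.048) on day 6. The day 3 and day 6 calls of Psmd2 were not made with library size alone (adjusted p = 0.121 and 0.271), nor when any of 11 and any of 19 single libraries was left out. The receptor Psmd4 was called on day 6 only (log2 fold change 0.25, SE 0.06, adjusted p = 0.00279), where the 3 KO libraries were above the 3 WT libraries.

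**Figure D5:**
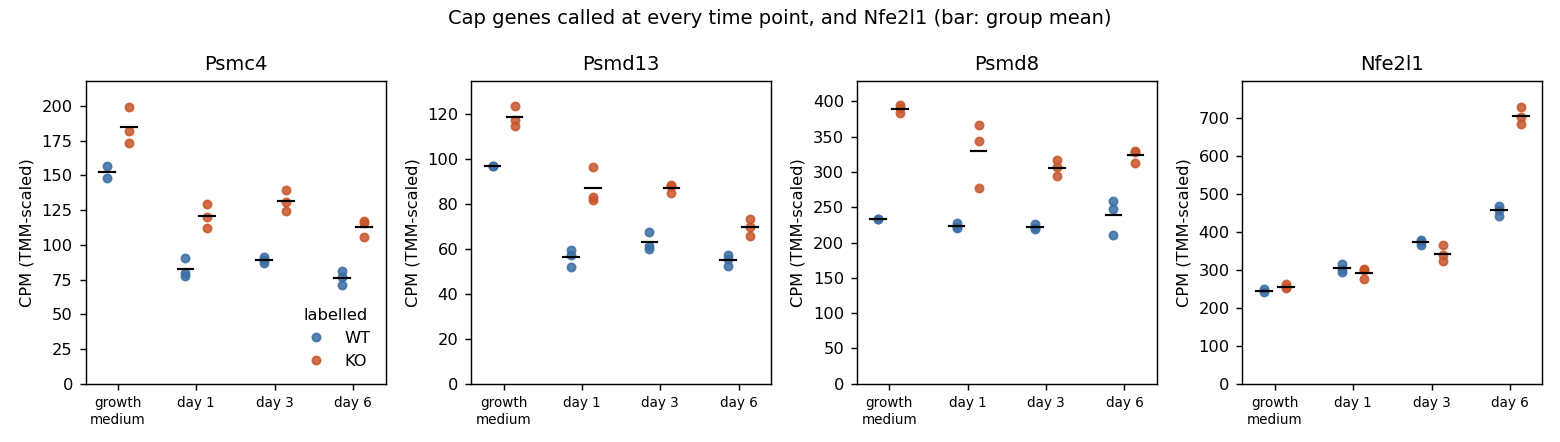
CPM of the 3 cap genes called higher in KO at all 4 time points and of the regulator Nfe2l1 in each library (points) with the group mean (bar). The KO points of Psmc4, Psmd13 and Psmd8 lie above the WT points at each time, while those of Nfe2l1 lie far above WT on day 6 (684 to 727 CPM against 442 to 468 CPM) and below WT on day 3.

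Among the activators, Psme2 was the only member of the 44 called lower in growth medium (log2 fold change -0.42, SE 0.11, adjusted p = 0.00714), and not called without either WT library (adjusted p = 0.0604 and 0.0641). Psme2 was called higher on day 6 (log2 fold change 0.26, SE 0.09, adjusted p = 0.03), though not with library size alone (adjusted p = 0.0992). Psme1 was the only member called lower on day 1 (log2 fold change -0.34, SE 0.11, adjusted p = 0.0114), where the 3 KO libraries lay below the 3 WT libraries, and it was called higher on day 3 (log2 fold change 0.36, SE 0.11, adjusted p = 0.00831) and day 6 (log2 fold change 0.42, SE 0.11, adjusted p = 0.00264). Without KO replicate 2, the day 1 log2 fold change was -0.36 for Psme1, 0.46 for Psme3 and 0.96 for Psmc3ip (adjusted p = 0.0148, 1.58e-05 and 0.00294). The day 1 call of Psme1 was lost without WT replicate 2 (adjusted p = 0.0568) and its day 3 call without KO replicate 3 (adjusted p = 0.0611). Psme3 was called higher on day 1 (log2 fold change 0.34, SE 0.09, adjusted p = 0.00458) and day 3 (log2 fold change 0.34, SE 0.09, adjusted p = 0.00475). Psme4 was called higher on day 1, but not without replicate 2 of KO (adjusted p = 0.252), WT replicate 2 (0.0566) or WT replicate 3 (0.0589). Of the assembly genes, Psmg2 was called higher on day 3 and Psmg4 on day 6. Psmc3ip was called higher on day 1 (log2 fold change 1.11, SE 0.22, adjusted p = 0.000348) and day 3 (log2 fold change 0.95, SE 0.21, adjusted p = 0.000847) and had the greatest difference of the 44 genes on both days.

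Over the 4 times, 12 of 44 members were higher on no day, 8 on 1 day, 15 on 2 days, 6 on 3 days and 3 on 4 days. Of all genes, 60.1% were higher on no day, 16.9% on 1, 12.8% on 2, 6.84% on 3 and 3.31% on 4. Members whose WT and KO libraries did not overlap numbered 13 in growth medium, where 51.6% of all genes were so separated. They numbered 24 on day 1 (47.1%; 29 and 62.2% without KO replicate 2), 30 on day 3 (60.4%) and 20 on day 6 (51.7%), so the members' share was below the background in growth medium and near it on the later days.

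A test of whether the change from growth medium differed between the genotypes called 1 member on day 1, 4 on day 3 and 5 on day 6, all in the direction of a higher value in KO in this fit (2.64%, 6.65% and 7.54% of all genes were called higher, and 1.31%, 4.06% and 5.42% lower). The members called higher were near the background on day 1, with 1 of 44, and a little above it on days 3 and 6. The day 1 call was Psmd1, and it was lost when any of 20 of the 23 libraries was left out, KO replicate 2 of day 1 among them. Psme1, Psme2 and Psmc2 were called on days 3 and 6, Psmg2 on day 3, and Psmd4 and Psmg4 on day 6. No core gene was called on any day by edgeR over all groups (3, 3 and 0 of 14 at an unadjusted p under 0.05), DESeq2 or limma. Fitted on only the groups compared, edgeR called 3 core genes higher on day 3 (9.98% of all genes). On day 6 the greatest interaction was that of Psme2 (log2 difference 0.68, SE 0.14, adjusted p = 0.00186). In the cap it was that of the ATPase Psmc2, which stood at 149.6 and 165 CPM in growth medium and 75.0, 85.5 and 73.0 CPM on day 6 in WT, and at 152, 163 and 165 CPM and 92.9, 112 and 109 CPM in KO (log2 difference 0.40, SE 0.13, adjusted p = 0.0409). The Psmc2 libraries of the genotypes overlapped in growth medium and were apart on day 6. Leaving out 1 library moved the interaction counts to between 0 and 5 on day 1, 1 and 6 on day 3, and 1 and 6 on day 6. The day 3 calls were 4 higher and 2 lower with DESeq2 (6.63% and 6.34% of all genes), and 9 and 2 with edgeR on only the groups compared (9.98% and 9.21%). With limma on log2(TPM + 1) the day 3 calls were also 4 higher and 2 lower (5.05% and 6.13%) and the day 6 calls 4 higher and 1 lower (8.32% and 7.81%).

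Genes that assemble, regulate or serve the proteasome were taken from a list of 35 symbols, of which 30 were tested. In KO against WT, 1 was called higher and 1 lower in growth medium, 13 and 0 on day 1 (11 and 1 without KO replicate 2), 7 and 1 on day 3, and 13 and 2 on day 6. Against 7.36%, 22.9%, 24% and 22% of all genes called higher, the day 3 share was near the background. In differentiation medium on day 6, 4 were called higher and 16 lower in WT (32.6% and 31.1% of all genes), and 8 and 14 in KO (36.6% and 33.5%), so the share called higher was below the background and the share called lower above it in both genotypes. Pomp, the maturation factor of the core, fell by day 6 in WT (log2 fold change -0.53, SE 0.08, adjusted p = 5.27e-06) and KO (log2 fold change -0.27, SE 0.07, adjusted p = 0.00244) and was higher in KO on day 6, with 49.6, 53.4 and 45.3 CPM in WT and 56.8, 63.1 and 62.5 CPM in KO (log2 fold change 0.30, SE 0.07, adjusted p = 0.00215). The cap ubiquitin receptor gene Adrm1 was also higher in KO on day 6 (log2 fold change 0.39, SE 0.12, adjusted p = 0.011), with the lowest KO library just above the highest WT library (98.1, 112 and 90.4 CPM in WT and 114, 137 and 141 CPM in KO). Usp14, a cap-bound deubiquitinase, fell in WT (log2 fold change -0.91, SE 0.10, adjusted p = 7.14e-08) and KO (log2 fold change -0.83, SE 0.10, adjusted p = 4.9e-08) and was not called between genotypes on day 6 (log2 fold change 0.12, SE 0.10, adjusted p = 0.324).

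Nfe2l1 rose while most subunit genes fell. It stood at 248 and 241 CPM in WT growth medium, 315, 302 and 294 CPM on day 1, 378, 366 and 374 CPM on day 3 and 458, 442 and 468 CPM on day 6. The KO libraries stood at 253, 261 and 252 CPM, 301, 276 and 299.8 CPM, 364, 322 and 339.6 CPM and 684, 727 and 702 CPM. The genotypes were not called apart up to day 3, when the KO libraries lay below WT, and on day 6 every KO library was far above every WT library (log2 fold change 0.63, SE 0.06, adjusted p = 1.37e-08). The change from growth medium to day 6 differed between genotypes (log2 difference 0.56, SE 0.09, adjusted p = 0.000117). The RNA level does not report the activity of this factor, which is set by protein turnover and processing. Ngly1, the deglycosylase that takes part in its processing, was lower in KO on day 6, with 12.6, 13.2 and 12.8 CPM in WT and 8.47, 8.13 and 9.41 CPM in KO (log2 fold change -0.57, SE 0.12, adjusted p = 0.000641). It was also called lower in growth medium (log2 fold change -0.61, SE 0.14, adjusted p = 0.00358) and on day 3 (log2 fold change -0.35, SE 0.12, adjusted p = 0.0225), when Nfe2l1 was not called. Zfand2a, a stress-induced partner of the proteasome, was higher, with 24.0, 25.9 and 28.3 CPM and 37.5, 38.1 and 40.7 CPM (log2 fold change 0.57, SE 0.09, adjusted p = 1.25e-05). Pomp and Zfand2a were also called higher in KO on days 1 and 3, and Adrm1 on day 3. Of the genes whose windows held TGACNNNGC, Psmd9 and Psmd12 were called higher in KO on days 1 and 3. Their day 1 calls were kept without KO replicate 2. Psmb5, Psmb6 and Psmc6 were called on no day. Of the 44 members, 23 and 25 were called higher on days 1 and 3, and of all genes 22.9% and 24%. These calls therefore do not set the genes with the motif apart.

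The immunoproteasome genes, whose products replace the 3 catalytic subunits of the core after interferon, were excluded from the members and were low. Psmb10, the counterpart of Psmb7, stood at 7.13, 9.14 and 7.80 CPM in WT and 13.5, 15.6 and 18.8 CPM in KO on day 6 (log2 fold change 0.99, SE 0.13, adjusted p = 1.31e-06). Psmb9, the counterpart of Psmb6, stood at 0.0860, 0.133 and 0.168 CPM and 1.54, 1.85 and 2.96 CPM (log2 fold change 3.98, SE 0.46, adjusted p = 1.78e-07). Psmb8, the counterpart of Psmb5, was at 0 in all 3 KO libraries of growth medium and at 0.704 and 0.417 CPM in WT, and on day 6 it stood at 1.33, 2.17 and 0.839 CPM and 1.01, 1.16 and 1.52 CPM (log2 fold change -0.23, SE 0.38, adjusted p = 0.673). Psmb8 was called lower in KO at the earlier times. On day 1 it stood at 0.935, 1.10 and 0.769 CPM in WT and 0, 0.0837 and 0.0448 CPM in KO (adjusted p = 3.57e-05). On day 3 it stood at 2.05, 1.99 and 1.69 CPM and 0.543, 0.402 and 0.0897 CPM (adjusted p = 0.00012). Psmb10 and Psmb9 were called on neither of the first 2 times and were higher in KO on day 3 by 0.35 (SE 0.13, adjusted p = 0.0317) and 1.51 (SE 0.47, adjusted p = 0.0116) on the log2 scale. Summed TPM of the 3 genes was 15.7 ± 1.83 (SD, n = 3) in WT and 30.9 ± 5.01 (SD, n = 3) in KO on day 6. The core of the interferon-stimulated response element (GAAA, any 2 bases, GAAA) and that of the gamma-activated sequence (TTCNNNGAA) were in 0 of the 4 activator genes' windows, against 3.46% and 8.13% of all genes, on either strand. Over the members they were in 3 of 37 (8.11%) and 1 of 37 (2.7%). With 4 genes and such shares of all genes, 0 matches are likely in any case, so these counts do not set the activators apart.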

How the data were processed

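RNA from 23 C2C12 libraries in 8 groups (label and day) had been sequenced after poly(A) selection. Per the submitters' processing notes, the authors used Bowtie2 and RSEM with mm10; versions are not given in the sources used here. The deposited tables hold estimated counts per gene, all whole numbers, and TPM values per gene, in which the authors scaled for transcript length and depth. RSEM shares reads between similar transcripts by estimation, so values of genes with near-identical copies are less certain. Total estimated counts were 22197606 to 23684077 per library.

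Genes were kept by filterByExpr (minimum count 10, minimum total 15) and counts were scaled by TMM. One group-means model over all 23 libraries was fitted in edgeR 4.0.16 (R 4.3.3), and 13 contrasts (4 between genotypes, 6 against growth medium, 3 interactions) were tested with the quasi-likelihood test. Adjusted p is Benjamini-Hochberg over 14187 genes, and a gene was called under 0.05. The SE of a log2 fold change was derived from its F statistic. The procedure was tested on simulated data. CPM are TMM-scaled, and levels of different genes are compared in TPM only. Alternatives were RLE and library-size scaling, a minimum mean count of 50 or none, DESeq2 1.42.0, limma 3.58.1 on log2(TPM + 1) and log2(TPM + 0.1), only the groups compared, a replicate block, a threshold of 0.01, and leaving out each library.

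The members and all gene lists were chosen with earlier results of these data known. Library values are given for the catalytic core subunits, Psmd14, Psmd2, Psmd4 and the activators. They are also given for the called members of the core, the cap and the activators with the greatest positive and the greatest negative log2 fold change, where there was one. These were taken from each genotype comparison, the day 6 comparisons with growth medium and the day 6 interaction. From the list of related genes, values are given for Pomp, Adrm1, Nfe2l1, Usp14, Zfand2a and Ngly1. Motifs were searched on both strands of RefSeq promoter windows (GRCm38.p6, the assembly that mm10 names).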

Additional observations from a re-analysis of the deposited data

Results flagged for a closer look

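The change from growth medium differed between the genotypes, by the interaction term of the edgeR quasi-likelihood model, for 10 pairs of a member and a day. Each value is the log2 change in KO minus that in WT. On day 1 it was 0.44 for the base scaffold Psmd1 (SE 0.12, adjusted p = 0.049). On day 3 it was 0.61 for Psme2 (SE 0.14, adjusted p = 0.00551), 0.58 for Psme1 (SE 0.16, adjusted p = 0.0205), 0.50 for the core assembly chaperone Psmg2 (SE 0.14, adjusted p = 0.0264) and 0.45 for the ATPase Psmc2 (SE 0.13, adjusted p = 0.0241). On day 6 it was 0.68 for Psme2 (SE 0.14, adjusted p = 0.00186), 0.64 for Psme1 (SE 0.16, adjusted p = 0.00865), 0.64 for the core assembly chaperone Psmg4 (SE 0.19, adjusted p = 0.0281), 0.40 for Psmc2 (SE 0.13, adjusted p = 0.0409) and 0.31 for the ubiquitin receptor Psmd4 (SE 0.10, adjusted p = 0.0333). Leaving out single libraries ended the day 1 call of Psmd1 in 20 of 23 omissions, and it was lost under 8 of 10 other alternatives. On day 3 the calls of Psmc2, Psmg2, Psme1 and Psme2 were lost in 9, 8, 5 and 0 omissions. The day 6 call of Psme1 was lost without WT growth-medium replicate 1 (adjusted p = 0.0865), that of Psmc2 when any of 12 single libraries was left out, that of Psmd4 when any of 11 was, that of Psmg4 when any of 8 was, and that of Psme2 in none. Without a filter, the day 3 call of Psmg2 and the day 6 calls of Psmc2 and Psmd4 were lost. The day 6 call of Psmc2 was also lost with limma on log2(TPM + 0.1), and that of Psmd4 with both limma fits. At an adjusted p under 0.01, only the calls of Psme2 and the day 6 call of Psme1 held. No group held more than 3 libraries, so single libraries were not tested against their group.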

How the results depend on the processing

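Counts of members called against growth medium kept within 1.5 times their value under every alternative run. Leaving out 1 library gave 37 to 40, 34 to 39 and 36 to 40 in WT on days 1, 3 and 6, and 35 to 38, 33 to 38 and 38 to 39 in KO. For KO against WT it gave 1 to 8 in growth medium, 17 to 25 on day 1, 14 to 25 on day 3 and 11 to 23 on day 6, and for the interactions 0 to 5, 1 to 6 and 1 to 6. In growth medium 7 members were called with only the groups compared and 2 at an adjusted p under 0.01. On day 1 only the groups compared gave 9. On day 3 limma on log2(TPM + 1) and on log2(TPM + 0.1) gave 12 each (9 higher, 3 lower) and an adjusted p under 0.01 gave 15. On day 6 limma on log2(TPM + 0.1) gave 11 (8 higher, 3 lower). The day 1 interaction count of 1 went to 0 with RLE, without a filter, with a minimum mean count of 50, both limma fits, only the groups compared, the replicate block and an adjusted p under 0.01. The day 3 interaction count went to 11 with only the groups compared and to 1 at an adjusted p under 0.01, and the day 6 count to 3 without a filter and to 2 at an adjusted p under 0.01. Samples with the same replicate number did not deviate together (mean correlation 0.119, -0.006, 0.004 and -0.149 on the 4 days). With the replicate block the genotype counts were 3, 24, 25 and 16, and apart from the day 1 interaction no count moved by over 1.5 times.

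Of 80 single-gene results, 35 lost or gained a call or changed sign under at least 1 alternative, and 10 changed sign, none of them called. In KO against WT, Psmb5 ranged from -0.0859 to 0.0287 in growth medium without single libraries. On day 3 it ranged from -0.00998 to 0.115, and was -0.0024 with library size alone and -0.0966 and -0.0972 with the limma fits. Psmb6 ranged on day 1 from -0.0295 to 0.129, and was -0.0115 with library size alone, -0.0128 with a minimum mean count of 50 and -0.0114 and -0.0115 with limma. It ranged from -0.195 to 0.0606 on day 6 and from -0.0989 to 0.177 in the day 6 interaction. Psmd2 in growth medium was -0.0082 with library size alone and -0.00861 and -0.00864 with limma. Psmd4 with limma was -0.0787 and -0.0791 on day 3 and, in KO from growth medium to day 6, 0.0216 and 0.0217. Psme3 ranged from -0.125 to 0.0172 in the day 6 interaction and Psme4 from -0.0612 to 0.051 in growth medium. The causes were not tested. Psmb8 and Psmb9 were near 0 in growth medium, where depth limits their differences.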
